A study of Mus musculus with 12 samples.

Results

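The secreted WNT inhibitors Wif1, Sfrp1, Sfrp2, Sfrp5, Frzb, Dkk2, Dkk3 and Notum were followed in RNA sequencing libraries of mouse brain cells. These 8 genes, of 41388 counted, were selected by symbol with their values in these libraries already known, so their differences between KO and WT are a description. Each symbol matched 1 Ensembl identifier, and all 8 passed the filter on low counts in both fits.

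Brains of 20-month-old C57BL/6 mice were dissociated with collagenase, and cells binding beads against the astrocyte surface antigen ACSA-2 were collected as astrocytes. The cells that did not bind were kept as flowthrough. KO astrocyte libraries came from mice 60, 62, 73 and 132, which were Cre+ for ALDH1L1-CreERT2, a tamoxifen-inducible Cre driven by an astrocyte promoter. WT astrocyte libraries came from the Cre- mice 56, 57, 64 and 78. KO and WT mice alike are labelled Bmal fl/fl, for loxP-flanked alleles of Bmal1 (Arntl, a core clock transcription factor). KO flowthrough libraries came from mice 60 and 132, and WT flowthrough libraries from mice 56 and 64. Every mouse, WT included, had received tamoxifen by gavage at 2 months of age, 2 mg a day for 5 days, and was housed with 12 h of light and 12 h of dark, so Cre carriage is the only labelled difference between KO and WT. Libraries of 1 group came from separate mice.

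The libraries held 38.7 to 51.6 M counts (M, 1000000). The floor used here, 3 counts, stood for 0.0541 to 0.0879 CPM, counts per 1000000 of the library scaled by TMM factors. Arntl had 401, 428, 645 and 628 counts in the KO astrocyte libraries, against 360, 239, 242 and 374 in the WT ones. It had 261 and 284 counts in KO flowthrough, against 292 and 217 in WT flowthrough. The counts of the targeted gene therefore ran against the label in astrocytes, and KO and WT here mean the libraries labelled so. These are whole-gene counts, which do not separate deleted from intact exons. All 12 astrocyte markers were called higher in astrocytes than in flowthrough, but flowthrough still held 3040 to 4302 counts of Aldh1l1, against 4236 to 13283 in the astrocyte libraries. The astrocyte libraries also held transcripts of other cells, and all 10 neuron markers were called higher in them. Oligodendrocyte markers summed there to 20335 to 38433 CPM, against 12101 to 24096 CPM for the astrocyte markers. KO mouse 73 and WT mouse 78 had female-type and the other libraries male-type levels of sex-linked transcripts.

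WNT proteins are lipid-modified ligands that act on Frizzled receptors and LRP co-receptors, and the canonical branch stabilises beta-catenin, which drives transcription with TCF and LEF factors. Secreted inhibitors act outside the cell. WIF1 and the SFRP family, to which FRZB belongs, bind the ligands. DKK2 binds the LRP co-receptors, and NOTUM removes the lipid from the ligand. In the brain this pathway is known for its part in the blood-brain barrier, in neurogenesis and in the regional patterning of the embryo.

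Wif1 and Sfrp5 were the 2 members past the threshold between KO and WT astrocytes, in opposite directions, and their upstream sequences are shown for that reason. RefSeq promoter entries (GRCm38.p6) matched 5 of the 8 members, Wif1, Sfrp2, Sfrp5, Frzb and Dkk2. The Wif1 stretch lies at chr10:121033754-121033959 on the plus strand, the Sfrp5 stretch at chr19:42202253-42202502 on the minus strand. Each ends at the base before the gene start of the deposited coordinates. RefSeq has the same start for Sfrp5 and a start further downstream, at 121034004, for Wif1. Capitals mark the E-box CACGTG, the letters bound by the BMAL1 and CLOCK pair.
Wif1: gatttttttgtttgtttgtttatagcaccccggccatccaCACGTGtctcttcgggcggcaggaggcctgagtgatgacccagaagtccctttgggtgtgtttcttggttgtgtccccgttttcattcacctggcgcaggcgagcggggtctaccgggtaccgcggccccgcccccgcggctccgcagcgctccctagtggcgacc
Sfrp5: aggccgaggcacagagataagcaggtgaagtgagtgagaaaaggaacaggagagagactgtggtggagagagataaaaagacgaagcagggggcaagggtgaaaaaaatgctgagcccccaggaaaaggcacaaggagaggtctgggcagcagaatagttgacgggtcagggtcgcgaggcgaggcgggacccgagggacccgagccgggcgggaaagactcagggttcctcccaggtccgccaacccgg
Both strands of the 250 bases before the RefSeq start were searched, and Wif1 held CACGTG 210 to 205 bases before that start. The other 4 members with an entry did not have these letters in the window. For Frzb the RefSeq start, 80447396, lies inside the gene as deposited. Only 21 of the 250 bases searched for Frzb lie before the deposited start. CACGTG was found in 1978 of 32851 promoters of the same length, or 6.02%. The letters AGGTCA, bound by nuclear receptors that include the ROR and REV-ERB clock factors, were in none of the 5 members and in 14.0% of promoters. The TCF and LEF letters CTTTGAT were likewise in none of the 5 and in 3.21% of promoters. None of the 3 motifs contains another, and a match is not evidence of binding.

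Per kilobase of summed exon length, the 8 genes spanned a wide range of levels. In KO astrocytes the order was Dkk3, Frzb, Wif1, Sfrp1, Sfrp5, Dkk2, Sfrp2 and Notum, with mean levels of 49.8, 11.2, 3.14, 2.97, 1.53, 0.377, 0.241 and 0.174 CPM per kilobase. In WT astrocytes it was Dkk3, Frzb, Sfrp5, Sfrp1, Wif1, Dkk2, Notum and Sfrp2, with mean levels of 67.2, 6.93, 5.26, 2.87, 0.382, 0.143, 0.125 and 0.0835 CPM per kilobase. Wif1 thus had rank 3 in KO astrocytes and rank 5 in WT astrocytes, and Sfrp5 rank 5 in KO astrocytes and rank 3 in WT astrocytes. In KO astrocytes the neighbours Wif1 (SD 1.68) and Sfrp1 (SD 0.875) did not differ beyond their spread, nor did Dkk2, Sfrp2 and Notum (SD 0.297, 0.0771 and 0.115). In WT astrocytes Frzb (SD 4.81) did not differ from Sfrp5 (SD 1.32) beyond its spread. Dkk2, Notum and Sfrp2 (SD 0.0831, 0.0316 and 0.0278) did not differ from one another beyond theirs. In KO flowthrough the order was Dkk3, Frzb, Sfrp1, Sfrp5, Notum, Wif1, Dkk2 and Sfrp2, and in WT flowthrough Dkk3, Sfrp1, Frzb, Sfrp5, Notum, Dkk2, Sfrp2 and Wif1. Wif1 had a mean of 0.490 CPM per kilobase in KO flowthrough and 0.0617 in WT flowthrough.

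**Figure D1:**
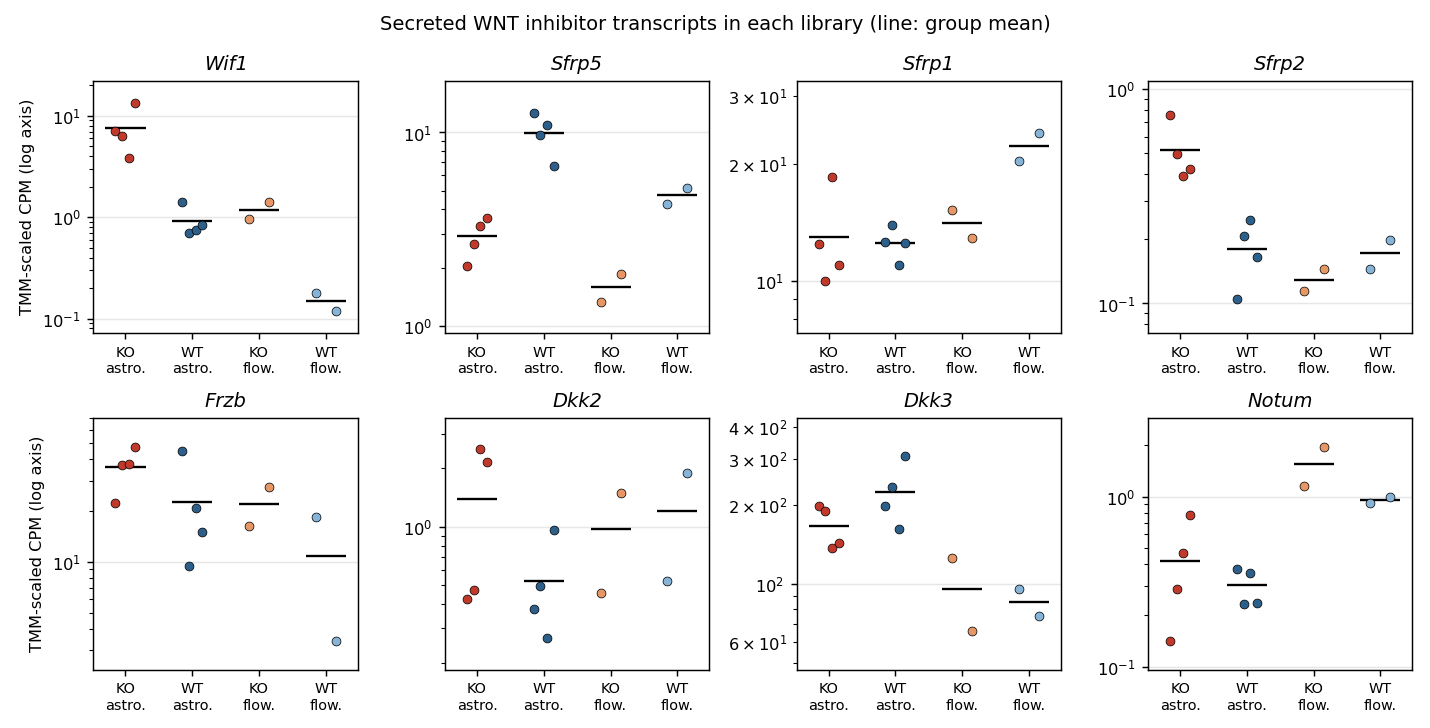
Level of each of the 8 secreted WNT inhibitors in every library, in TMM-scaled CPM on a log axis, with KO left of WT within each fraction; points are libraries and lines are group means. Wif1 lay at 3.80 to 13.4 CPM in KO astrocytes and 0.703 to 1.4 CPM in WT astrocytes, and Sfrp5 at 2.04 to 3.61 CPM in KO astrocytes and 6.71 to 12.7 CPM in WT astrocytes.

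Setting KO against WT astrocytes asks which genes differ in the cell type that the Cre promoter targets. Of 18527 genes tested with edgeR's quasi-likelihood test, 43, or 0.232%, had a Benjamini-Hochberg adjusted p under 0.05, 27 (0.146%) higher and 16 (0.0864%) lower in KO. Among the inhibitors 2 of 8 were called, Wif1 higher and Sfrp5 lower. KO and WT values did not overlap for 3 of the 8, Wif1, Sfrp2 and Sfrp5, where 4.03% of all genes tested did not overlap. The median log2 fold change was 0.59 over the 8 members and 0.0044 over all genes tested. Since the members were picked with this contrast in view, nothing is read from these shares.

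Wif1 (ENSMUSG00000020218, chromosome 10, 121033960 to 121100650, plus strand, GRCm38, 10 exon intervals) encodes WNT inhibitory factor 1. It had 7.04, 6.26, 3.80 and 13.4 CPM in astrocytes of KO mice 60, 62, 73 and 132, against 1.4, 0.703, 0.757 and 0.847 CPM in WT mice 56, 57, 64 and 78. The lowest KO library, mouse 73, was above the highest WT library, mouse 56. The mean was 7.62 ± 4.08 CPM in KO and 0.927 ± 0.321 CPM in WT astrocytes (SD, n = 4 each), which gave a log2 fold change of 3.04 ± 0.42 (SE), or 8.20-fold (edgeR adjusted p = 0.0255). Leaving out 1 library at a time gave 2.62 to 3.31 on the log2 scale. The call was lost without KO mouse 60, 62 or 132 (adjusted p = 0.0718, 0.0709 and 0.0615) and without WT mouse 57, 64 or 78 (adjusted p = 0.122, 0.0950 and 0.103).

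Sfrp5 (ENSMUSG00000018822, chromosome 19, 42197971 to 42202252, minus strand, 3 exon intervals) encodes a secreted Frizzled-related protein. Its level was 2.04, 2.65, 3.29 and 3.61 CPM in KO astrocytes of mice 60, 62, 73 and 132, against 12.7, 9.67, 10.9 and 6.71 CPM in WT astrocytes of mice 56, 57, 64 and 78. Every KO library was below every WT library. The mean was 2.90 ± 0.700 CPM in KO and 9.99 ± 2.52 CPM in WT astrocytes (SD, n = 4 each), which gave a log2 fold change of -1.78 ± 0.26, or 3.42-fold lower in KO (edgeR adjusted p = 0.0362). Of the leave-one-out fits only the one without WT mouse 78 kept the call (adjusted p = 0.0297), and the others gave adjusted p = 0.0556 to 0.132. Scaling by library size alone also ended it (adjusted p = 0.121).

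Both calls held without the female-type pair, KO mouse 73 and WT mouse 78, each with an adjusted p of 0.0199. Beside these values, the summed astrocyte markers were 12101 to 24096 CPM in KO and 18360 to 24066 CPM in WT astrocytes, lowest in KO mouse 73, with 10 of 12 markers below 0 in log2 fold change. The oligodendrocyte markers summed to 24348 to 38433 CPM in KO and 20335 to 26626 CPM in WT astrocytes, and all 10 had positive fold changes. Microglia markers summed to 628 to 2945 CPM in KO, highest in mouse 73, and 604 to 1240 CPM in WT astrocytes, with all 10 fold changes positive. Bergmann glia and cerebellar astrocyte markers summed to 970 to 1310 CPM in KO and 842 to 1108 CPM in WT astrocytes. Of these 7 markers, 4 had positive and 3 negative fold changes. Choroid plexus markers summed to 1806 to 9311 CPM in KO, highest in mouse 73, and 1998 to 5871 CPM in WT astrocytes. All 8 had positive fold changes. No marker of these lists was called between KO and WT or was at 0 in all libraries, and the part of cell makeup in the inhibitors' values was not tested. In bulk libraries, fewer cells of a type and less RNA per cell cannot be told apart.

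Sfrp2 (ENSMUSG00000027996, chromosome 3, 83766321 to 83774316, plus strand), another Frizzled-related ligand binder, was scarce. It had 32, 21, 21 and 20 counts in KO astrocytes of mice 60, 62, 73 and 132, against 5, 7, 11 and 7 counts in WT astrocytes of mice 56, 57, 64 and 78. The groups did not overlap, and the log2 fold change was 1.52 ± 0.43 (edgeR adjusted p = 0.456), which did not pass. Sfrp2 passed the filter on low counts in this fit through its KO libraries, and a filter at 1 CPM left it out. Its exons overlap those of Gm26771 on the minus strand, which had 3 to 26 counts in KO and 6 to 13 counts in WT astrocytes. The sources used here do not give the strand setting of the counting, and reads of this pair cannot be assigned with certainty.

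Sfrp1 (ENSMUSG00000031548, chromosome 8, 23411502 to 23449632, plus strand) had 12.5, 9.97, 18.5 and 11 CPM in KO astrocytes and 12.6, 14.0, 11 and 12.6 CPM in WT astrocytes. The groups overlapped, with the highest value in KO mouse 73, and the log2 fold change was 0.06 ± 0.20. It turned to -0.17 without KO mouse 73. Frzb (ENSMUSG00000027004, chromosome 2, 80411970 to 80447625, minus strand), also known as secreted Frizzled-related protein 3, varied between mice. It had 22.3, 37.3, 37.6 and 47.5 CPM in KO astrocytes of mice 60, 62, 73 and 132, against 44.7, 9.38, 20.7 and 14.9 CPM in WT astrocytes of mice 56, 57, 64 and 78. WT mouse 56 stood among the KO libraries and the other 3 WT libraries below all of them. The log2 fold change was 0.69 ± 0.43 (edgeR adjusted p = 0.984).

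Dkk2 (ENSMUSG00000028031, chromosome 3, 132085292 to 132180293, plus strand) had 0.426, 0.474, 2.51 and 2.16 CPM in KO astrocytes of mice 60, 62, 73 and 132, against 0.376, 0.498, 0.267 and 0.965 CPM in WT astrocytes of mice 56, 57, 64 and 78. Mice 73 and 132 were high, and the other KO libraries lay within the WT range. The log2 fold change was 1.42 ± 0.67 (edgeR adjusted p = 0.941). Dkk3 (ENSMUSG00000030772, chromosome 7, 112116019 to 112159057, minus strand), a divergent member of the Dickkopf family whose role in WNT signalling is less settled, was the most abundant member in every group. It had 198, 190, 137 and 144 CPM in KO astrocytes, against 199, 234, 162 and 308 CPM in WT astrocytes, with overlapping groups and a log2 fold change of -0.42 ± 0.21 (edgeR adjusted p = 0.967). Notum (ENSMUSG00000042988, chromosome 11, 120653788 to 120661175, minus strand), the enzyme that delipidates WNT proteins, had 6, 12, 25 and 37 counts in KO astrocytes and 18, 8, 16 and 10 in WT astrocytes. Its groups overlapped, and the log2 fold change was 0.48 ± 0.53 (edgeR adjusted p = 0.995). It overlaps the antisense genes Notumos, with at most 8 counts in a library, and Myadml2os, with at most 3.

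In flowthrough, with 2 libraries of each label, 1 of 20997 genes was called by edgeR between KO and WT, or 0.00476%, and none of the 8 members. Without adjustment, 973 genes (4.63%) and 3 of 8 members had an edgeR p under 0.05. DESeq2 called 23 of 20997 genes, among them Wif1 and Sfrp5. The members were chosen with their values known, so nothing is read from these counts. KO and WT values did not overlap for 5 of 8 members (Wif1 and Notum higher, Sfrp1, Sfrp2 and Sfrp5 lower in KO), and for 33.6% of all genes tested. The median log2 fold change was -0.07 over the members and 0.04 over all genes.

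Wif1 had 0.952 and 1.42 CPM in flowthrough of KO mice 60 and 132, against 0.181 and 0.119 CPM in WT mice 56 and 64. Those levels rest on 50 and 79 counts in KO and 10 and 6 counts in WT. The log2 fold change was 2.96 ± 0.63 (edgeR adjusted p = 0.971, DESeq2 adjusted p = 0.0115). Sfrp5 had 1.33 and 1.86 CPM in KO flowthrough, against 4.29 and 5.18 CPM in WT flowthrough, a log2 fold change of -1.57 ± 0.36 (edgeR adjusted p = 1, DESeq2 adjusted p = 0.0337). Both genes differed in the same direction in the 2 fractions, but 4 of the 8 mice gave both libraries, so the fractions are not independent mice. Beside them, the astrocyte markers summed to 9184 and 4747 CPM in KO flowthrough and 5285 and 3702 CPM in WT flowthrough, with 11 of 12 fold changes positive and none called. The mitochondrial share of counts was 12.7 and 7.95% in KO flowthrough and 8.20 and 4.66% in WT flowthrough. The part of these measures in the flowthrough values was not tested.

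Sfrp1 had 15.3 and 12.9 CPM in KO flowthrough, against 20.4 and 24.1 CPM in WT flowthrough. The log2 fold change was -0.66 ± 0.27 (edgeR adjusted p = 1). Choroid plexus markers summed to 19315 and 23314 CPM in KO flowthrough and 33869 and 40124 CPM in WT flowthrough, with all 8 fold changes negative and none called, and their part in the Sfrp1 values was not tested. Notum had 1.16 and 1.96 CPM in KO flowthrough, against 0.923 and 0.989 CPM in WT flowthrough (log2 fold change 0.71 ± 0.64). Sfrp2 had 6 and 8 counts in KO and 8 and 10 in WT flowthrough (log2 fold change -0.40 ± 0.64). The libraries overlapped for Frzb, at 16.1 and 27.7 CPM in KO and 18.3 and 3.42 CPM in WT flowthrough, with a log2 fold change of 1.01 ± 0.76. They also overlapped for Dkk2, at 0.457 and 1.5 CPM in KO and 0.525 and 1.90 CPM in WT flowthrough (log2 fold change -0.31 ± 0.97). Dkk3 had 126 and 65.9 CPM in KO and 95.7 and 75.1 CPM in WT flowthrough (log2 fold change 0.17 ± 0.34), and none of these 3 passed.

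Over the 4 groups, Wif1 was highest in KO astrocytes, followed by KO flowthrough, WT astrocytes and WT flowthrough. KO flowthrough overlapped WT astrocytes, and the other neighbours in that order did not overlap. Sfrp5 was lowest in KO flowthrough, followed upward by KO astrocytes, WT flowthrough and WT astrocytes, with no overlap between neighbours.

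**Figure D2:**
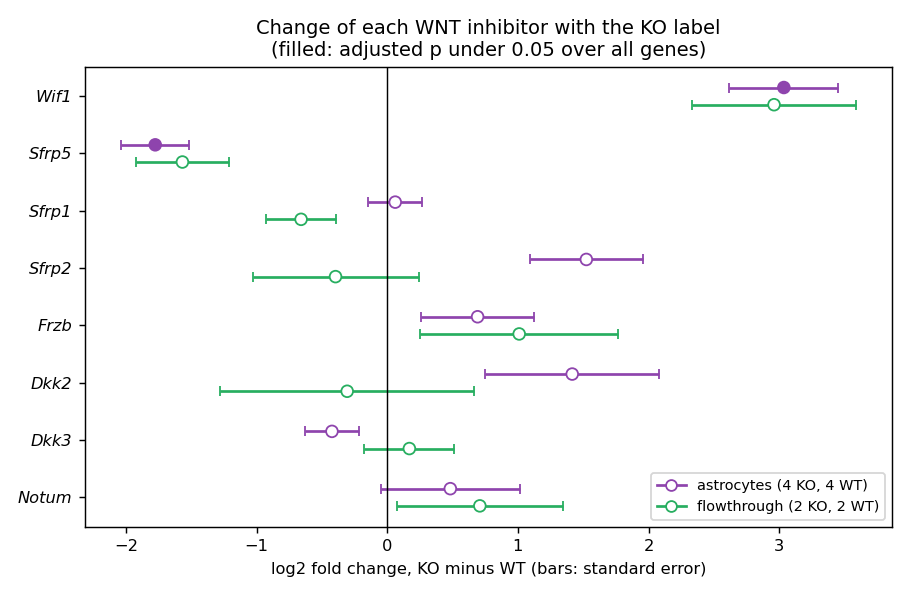
Log2 fold change of each member with its standard error, KO over WT, in astrocytes (upper mark) and in flowthrough (lower mark). Wif1 lay at 3.04 in astrocytes and 2.96 in flowthrough and Sfrp5 at -1.78 in astrocytes and -1.57 in flowthrough, and filled marks are calls by edgeR.

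The interaction of label and fraction tests whether the KO difference in astrocytes differs from that in flowthrough. Of 20997 genes, 0 were called by edgeR (0%), with 828 at an unadjusted p under 0.05 and 8 called by DESeq2. No member was called. For Wif1 the 2 log2 fold changes differed by 0.07 ± 0.99 and for Sfrp5 by -0.22 ± 0.43. DESeq2 gave SEs of 0.79 and 0.46, and errors of either size are too wide to show that they were alike. Sfrp2, higher in KO astrocytes and slightly lower in KO flowthrough, had the largest of the members' differences, 1.91 ± 0.78 (edgeR adjusted p = 0.934).

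Astrocytes and flowthrough were next compared over both labels, in the same libraries and for the same members, whose values were known when they were chosen. The mitochondrial share of counts was 12.6 to 21.4% in astrocytes and 4.66 to 12.7% in flowthrough, and its part in the differences was not tested. Of 20997 genes, 10333, or 49.2%, were called by edgeR, 24.8% higher and 24.4% lower in astrocytes. Of the 8 members 5 were called, a share near that background. Wif1, Sfrp5 and Dkk3 were higher in astrocytes, Sfrp1 and Notum lower. The median log2 difference was 0.93 over the members and 0.0040 over all genes.

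Wif1 had the largest difference among the members, at 2.64 ± 0.39 on the log2 scale (edgeR adjusted p = 2.79e-04). In the 4 mice with both libraries, the astrocyte level of Wif1 was 9.40-fold and 7.39-fold the flowthrough level in KO mice 132 and 60, and 7.74-fold and 6.37-fold in WT mice 56 and 64. In WT mice 56 and 64 the flowthrough level of Wif1 rests on 10 and 6 counts. These ratios cannot show whether KO and WT mice were alike. Sfrp5 was higher in astrocytes by 0.97 ± 0.22 (edgeR adjusted p = 0.00395) and in 4 of 4 mice, by 0.61 to 1.56. Dkk3 was higher by 1.10 ± 0.22 (edgeR adjusted p = 0.00180), in 4 of 4 mice. Neuron, oligodendrocyte precursor and oligodendrocyte markers were also called higher in this fraction (10 of 10, 6 of 7 and 5 of 10). Their part in the higher Wif1, Sfrp5 and Dkk3 levels was not tested.

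Notum was lower in astrocytes by -1.77 ± 0.39 (edgeR adjusted p = 0.00290), and in each of 4 mice, by -3.03 to -1.29. Sfrp1 was lower by -0.47 ± 0.16 (edgeR adjusted p = 0.0302), again in 4 of 4 mice, though 5 leave-one-out fits ended the call (adjusted p = 0.0513 to 0.104). Frzb was higher in 4 of 4 mice, with a log2 difference of 0.89 ± 0.48 that did not pass (edgeR adjusted p = 0.146). With the mouse as a block, in the 4 mice with both libraries, Frzb did pass (1.26, adjusted p = 0.00222). It also passed without WT flowthrough of mouse 56 (1.72, adjusted p = 0.0174). Sfrp2 (1.02 ± 0.40, adjusted p = 0.0509) and Dkk2 (-0.34 ± 0.59, adjusted p = 0.654) did not pass in edgeR, though Sfrp2 did without KO astrocytes of mouse 73 (adjusted p = 0.0454) or WT astrocytes of mouse 56 (adjusted p = 0.0374). Choroid plexus, endothelial and microglia markers were all lower in astrocytes (8 of 8, 9 of 9 and 10 of 10 called), and their part in the lower Notum and Sfrp1 levels was not tested.

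**Figure D3:**
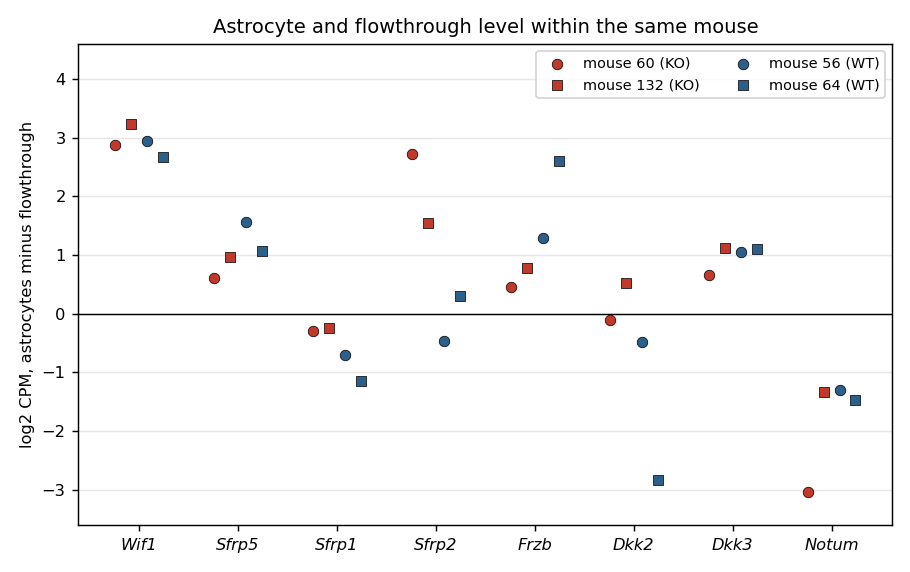
Log2 ratio of the astrocyte to the flowthrough level within each of the 4 mice with both libraries, KO mice 60 and 132 left of WT mice 56 and 64. Wif1 lay at 2.67 to 3.23 in all 4 mice, Notum was below 0 in all 4, and Frzb ranged over 0.46 to 2.60.

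Some members differed between mice in both fractions. Frzb was higher in KO mouse 132 (47.5 CPM in astrocytes, 27.7 CPM in flowthrough) than in KO mouse 60 (22.3 and 16.1 CPM), and higher in WT mouse 56 (44.7 and 18.3 CPM) than in WT mouse 64 (20.7 and 3.42 CPM). Dkk2 in KO mouse 132 was at 2.16 CPM in astrocytes and 1.5 CPM in flowthrough, against 0.426 and 0.457 CPM in KO mouse 60. In WT mice, by contrast, Dkk2 was highest in the flowthrough of mouse 64 (1.90 CPM), whose astrocytes had 0.267 CPM.

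For each member the 3 genes with the most similar pattern over the 12 libraries were found by the root mean square difference of centred log2 CPM, among about 12660 genes (12660 or 12661 per member) with a mean log2 CPM of at least 1. Nearest to Wif1 were Fabp7, a brain lipid-binding protein of radial glia and astrocytes, Pla2g3, a secreted phospholipase, and Egfl6, at 0.69, 0.70 and 0.78. Fabp7 averaged 2426 CPM in KO and 473 CPM in WT astrocytes, and 932 CPM in KO and 170 CPM in WT flowthrough. Nearest to Sfrp5 were Hsd11b1, the enzyme that regenerates active glucocorticoid, Chil1, a chitinase-like protein secreted by astrocytes, and Nat8f5, at 0.44, 0.44 and 0.47. Chil1 averaged 44.1 CPM in KO and 127 CPM in WT astrocytes. The nearest gene was Gdpd4 for Frzb (0.24), Cers6 for Sfrp1 (0.12), Acy3 for Sfrp2 (0.39), Srebf2 for Dkk3 (0.15), Gbp9 for Notum (0.29) and Myo1d for Dkk2 (0.77). The SD of log2 CPM was 1.95 for Wif1, 1.04 for Sfrp5, 1.07 for Frzb and 0.388 for Sfrp1. It was 0.778 for Sfrp2, 0.664 for Dkk3, 1.04 for Notum and 1.06 for Dkk2, which even its nearest gene followed only loosely. The likenesses are over 12 libraries of 8 mice and carry no test.

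The rest of the WNT pathway was read from 7 lists of 97 genes, of which 84 were tested in astrocytes and 88 in the fit of all libraries. Between KO and WT astrocytes 0 of 84 were called by edgeR, with 8 at an unadjusted p under 0.05, as were 995 of all 18527 genes tested (5.37%). DESeq2 and the fit on all 12 libraries did call Fzd2. In flowthrough 0 of 88 were called, with 8 at an unadjusted p under 0.05, as were 4.63% of all genes. The median log2 fold change of the tested genes was -0.03 in astrocytes and 0.05 in flowthrough, against 0.0044 and 0.04 over all genes.

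Of the ligands, 0 of 16 tested passed between KO and WT astrocytes. Wnt7b, a ligand made in the brain for the vasculature, averaged 6.76 ± 1.79 CPM in KO and 9.67 ± 1.17 CPM in WT astrocytes (log2 fold change -0.51 ± 0.21, edgeR adjusted p = 0.862). Ndp, norrin, a ligand of Frizzled 4, averaged 38.3 ± 4.72 CPM in KO and 52.2 ± 18.8 CPM in WT astrocytes. Neither difference passed.

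Of the receptors and co-receptors, 0 of 20 passed. Fzd2, a Frizzled receptor, came closest, at 6.71 ± 0.430 CPM in KO and 13.4 ± 2.32 CPM in WT astrocytes (SD, n = 4 each; log2 fold change -0.99 ± 0.17). Its groups did not overlap, its edgeR adjusted p was 0.0588, and the calls by DESeq2 and on all 12 libraries had adjusted p = 1.37e-05 and 0.0387. Tspan12, a norrin co-receptor, averaged 181 ± 38.5 CPM in KO and 269 ± 64.9 CPM in WT astrocytes (adjusted p = 0.715).

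Among 8 genes of secretion and lipid handling 0 passed, and Gpc6, a glypican, averaged 15.7 ± 2.05 CPM in KO and 21.2 ± 2.49 CPM in WT astrocytes. Sulf1, which removes sulfate from heparan sulfate, had a log2 fold change of -0.69 ± 0.29. In the R-spondin axis 0 of 8 passed; the receptors Lgr4 and Lgr6 had log2 fold changes of -0.39 ± 0.15 and 0.55 ± 0.23. Of the beta-catenin core 0 of 16 passed, Dvl1 at -0.46 ± 0.21 and Tcf7l1 at -0.33 ± 0.22. Of the target genes 0 of 10 passed: Axin2, a feedback inhibitor that serves as a common readout of the pathway, averaged 7.38 ± 0.710 CPM in KO and 8.65 ± 1.62 CPM in WT astrocytes, a log2 fold change of -0.22 ± 0.18. Tnfrsf19 was at 0.31 ± 0.16. Of the other antagonists 0 of 6 passed, with Apcdd1 at 0.43 ± 0.27 and Sostdc1 at 0.59 ± 0.48. Sostdc1 turned to -0.04 without KO mouse 73 and WT mouse 78.

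Between astrocytes and flowthrough, 44 of the 88 pathway genes were called, 29 higher and 15 lower, a share near the 49.2% of all genes. Of the ligands 6 of 17 were called higher and 0 lower. Over all genes 24.8% were called higher and 24.4% lower, and these shares stand beside each list that follows. Wnt7a averaged 14.0 CPM in KO and 13.1 CPM in WT astrocytes, against 3.91 CPM in KO and 1.70 CPM in WT flowthrough (log2 difference 2.39 ± 0.31), and Ndp was higher by 2.12 ± 0.33. Receptors were called in both directions, 7 higher and 5 lower of 21, with Fzd1 at 1.61 ± 0.18 and Tspan12 at 1.4 ± 0.22.

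Of the R-spondin axis 3 were higher and 1 lower of 8, with Lgr6 at 1.94 ± 0.26 and Lgr4 at 1.12 ± 0.15. Of the core genes 8 were higher and 1 lower of 16. Pygo1, a beta-catenin coactivator subunit, was at 1.51 ± 0.22, and the transcription factor Tcf7 at -1.25 ± 0.19. Of the target genes 1 was higher and 3 were lower of 11, among them Myc at -2.61 ± 0.35 and Cd44 at -2.23 ± 0.19.

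Of the secretion and lipid genes 3 were higher and 3 lower of 8. Sulf1 was at -1.95 ± 0.22 and Gpc3 at -1.05 ± 0.38. The Gpc3 call was lost in 9 leave-one-out fits. Of the other antagonists 1 was higher and 2 were lower of 7. Sostdc1, a choroid plexus marker as well, was at -2.74 ± 0.37 and Sfrp4 at -1.83 ± 0.47.

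**Figure D4:**
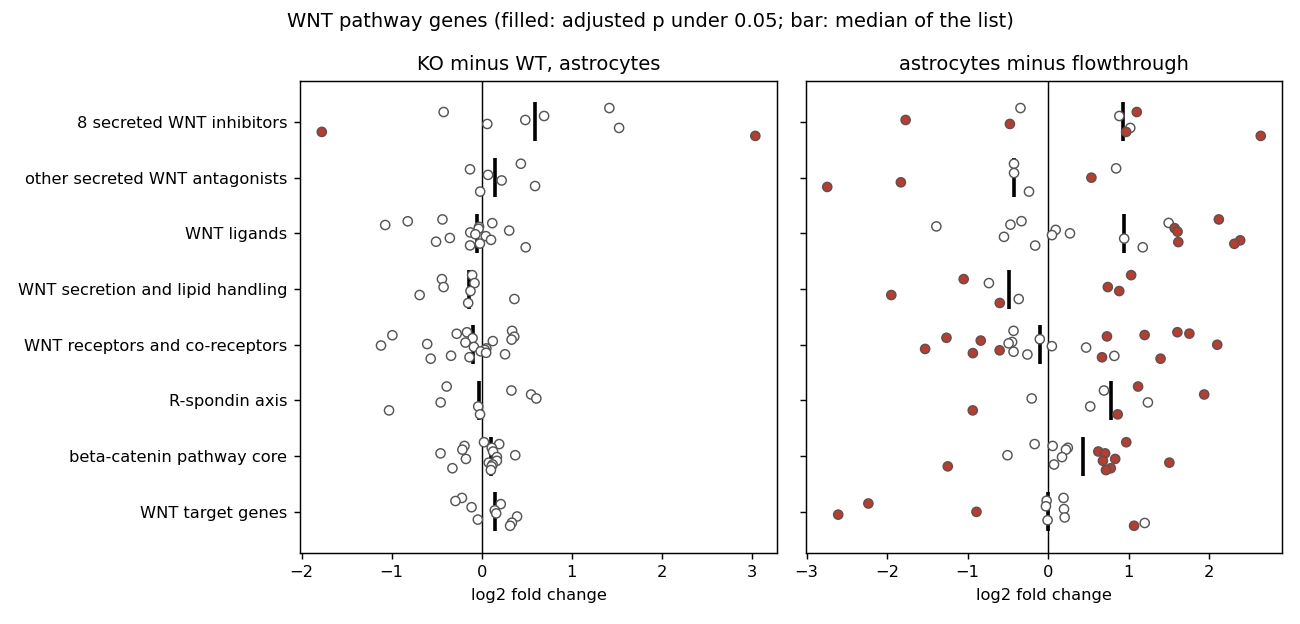
Log2 fold change of every tested gene of the 8 inhibitors and of the 7 WNT pathway lists, KO over WT astrocytes (left) and astrocytes over flowthrough (right), by list; filled points are calls by edgeR and bars are list medians. Wif1 at 3.04 and Sfrp5 at -1.78 are the 2 calls on the left, and Fzd2 lies there at -0.99.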

How the data were processed

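RNA was measured in 12 libraries of 8 mice (mouse numbers from the labels). Per the labels' protocols, Trizol and column extraction was followed by SMARTer v1 amplification. The submitters' processing notes name STAR 2.5.1a, featureCounts 1.4.6-p5, Subread, bcl2fastq and the GRCm38 build. How strand and multiply mapped reads were treated is not given in the sources used here. The deposited raw counts per gene were tested, and the deposited CPM and RPKM, per the file headers, were only checked against them. CPM in the text was computed with TMM factors over 12 libraries.

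Members, lists and tests were chosen with earlier results of these data known. edgeR 4.0.16 (R 4.3.3; filterByExpr, TMM, quasi-likelihood test, two-sided, Benjamini-Hochberg over all genes) compared KO with WT astrocytes in 8 libraries, and made the other comparisons in 12 libraries with 4 group means. An adjusted p under 0.05 was called. Fold changes come from each comparison's fit. The test was checked on simulated counts. Named pathway genes were the 2 per list with the smallest p between KO and WT astrocytes, and the 2 with the largest called change between fractions among genes with a mean log2 CPM of at least 1. 40254 of 41388 identifiers matched a symbol. Libraries of 1 mouse were paired by its number: their deviations from the group means correlated at 0.155, 0.352, 0.251 and -0.00664 for mice 56, 60, 64 and 132. With 2 libraries in each flowthrough group, the deviations of the 2 mirror each other, so these correlations are not separate checks. Alternatives were DESeq2 1.42.0, RLE or library size scaling, filters, the block, other library sets, and each library left out. SDs are between libraries. Each edgeR SE is the size of the log2 fold change divided by the square root of the test's F statistic. It is unreliable where the fold change is near 0. Floors cover counting error only, since no molecular identifiers are named.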

Additional observations from a re-analysis of the deposited data

Results flagged for a closer look

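Fold changes of 4 members had opposite signs in the 2 fractions. Of these, Sfrp2 is given here because its KO and WT libraries did not overlap in either. Neither difference passed. Over all genes tested, KO and WT values did not overlap for 4.03% in astrocytes and 33.6% in flowthrough, so lack of overlap in flowthrough was common. In astrocytes all 4 KO libraries (0.393 to 0.758 CPM) were above all 4 WT libraries (0.104 to 0.245 CPM), while in flowthrough both KO libraries (0.114 and 0.144 CPM) were below both WT libraries (0.145 and 0.198 CPM). The difference between the log2 fold changes was 1.91 ± 0.78 (edgeR adjusted p = 0.934), so it did not pass over all genes. The flowthrough values rest on 6 to 10 counts a library. In the astrocyte fit Sfrp2 passed the filter on low counts through its KO libraries, so the lack of overlap there is a description only. No single library stood apart in the 16 groups of 4 libraries tested, by Dixon's criterion, by which chance singles out about 1 in 20 groups.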

How the results depend on the processing

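Between KO and WT astrocytes the number of called genes was 43, against 28 with library size scaling, 184 with DESeq2, and 12 to 37 with 1 library left out. The members called fell to 1 with library size scaling and 0 to 1 with 1 library left out. In flowthrough DESeq2 called 23 genes and 2 members, the fit on 4 flowthrough libraries 0 genes, and the leave-one-out fits 0 to 5 genes. DESeq2 called 8 genes in the interaction. Directions turned for Sfrp1 in astrocytes without KO mouse 73 and WT mouse 78 (-0.16) and over the leave-one-out fits (-0.17 to 0.17), for Sostdc1 in astrocytes without both (-0.036), and for Notum in astrocytes (-0.00011 to 0.76). In flowthrough they turned for Dkk2 (-1.40 to 0.89) and Dkk3 (-0.37 to 0.56). In the interaction they turned for Wif1 (-0.35 to 0.39), Sfrp5 (-0.43 to 0.043), Frzb (-1.99 to 0.43) and Notum (-0.72 to 0.20), and between fractions for Dkk2 (-0.67 to 0.24). The cause was not tested. Fits that leave 1 flowthrough library of a label assume that it varies like the other groups. With the mouse as a replicate block, 10954 genes were called between fractions and 0 in the interaction, and among the members and named genes the block changed no call but that of Frzb. No paired analysis was possible because each mouse has 1 label, for KO against WT. Library size scaling moved the median of all genes by -0.15 between fractions and by 0.11 in the interaction. Of the alternative values for single genes, 1011 kept direction and call, 28 lost and 8 gained the call, and 20 turned.

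Depth limits Wif1 in WT flowthrough, Sfrp2 and Notum, at 5 to 12 counts in several libraries.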
